A study of Mus musculus with 12 samples.

Results

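The genes described here are 10 ligands and receptors of 2 families of trophic factors that support motor neurons, the GDNF family (Gdnf, Nrtn, Ret, Gfra1 and Gfra2) and the CNTF and LIF family (Cntf, Lif, Cntfr, Lifr and Il6st). They were chosen by symbol from the 38924 genes in each deposited table, each symbol was found once, and all 10 were among the 17980 genes that were tested. The P278KY mice were 3 females (mice 3, 4 and 9) and 3 males (6, 7 and 8), each heterozygous for the P278KY mutation of Gars, which encodes glycyl-tRNA synthetase. The wild-type (WT) mice were 3 females (1, 2 and 10) and 3 males (5, 11 and 12), and values of single mice are given in this order. All 12 mice were 8 weeks old, had the mixed background B6J;CAST, and gave 1 RNA-seq library each from whole spinal cord. Dominant mutations of glycyl-tRNA synthetase cause a form of Charcot-Marie-Tooth neuropathy, in which motor axons degenerate, and the comparison asks how transcripts in the cord differ between the genotypes. The genotypes were taken from the labels, and gene counts do not tell mutant transcripts from WT ones.

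GDNF and neurturin (Nrtn) act through a shared receptor tyrosine kinase, RET, which they reach by first binding a co-receptor anchored in the membrane. GDNF prefers the co-receptor GFRα1 (Gfra1) and neurturin prefers GFRα2 (Gfra2), and motor neurons carry RET and GFRα1. CNTF, which Schwann cells and astrocytes make, binds its own receptor subunit (Cntfr) and then recruits the LIF receptor (Lifr) and gp130 (Il6st), which signal through JAK kinases and STAT3. LIF needs only the LIF receptor and gp130.

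Library totals were 26982140 to 39339999 expected counts. Between the genotypes, 956 of 17980 genes passed an adjusted p threshold of 0.05 (5.32%), of which 425 were higher and 531 lower in P278KY mice, and the median log2 change over all tested genes was -0.003. Genes that mark spinal cord, Hox genes among them, summed to 1218 to 1296 CPM in P278KY mice and 1106 to 1295 CPM in WT mice. The mean log2 CPM of motor neuron markers lay at 4.39 to 4.63 in P278KY mice, against 4.82 to 5.27 in WT mice, and 10 of the 18 tested markers fell, with 0 that rose. Schwann cell markers lay at 4.89 to 5.98 in P278KY mice and at 5.98 to 6.48 in WT mice, and 4 of 14 fell. Markers of sensory ganglion neurons were high in P278KY male 7 (2.77), WT female 10 (1.96) and WT male 11 (1.58), and lay between -0.91 and -0.26 in the other mice. Of the 12 tested ganglion markers 1 rose and 0 fell, and of 12 astrocyte markers 2 rose and 0 fell. Skeletal muscle markers were highest in mice 1 to 4 (6.19 to 9.02) and lay at 1.55 to 3.92 in mice 5 to 12.

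Of the 10 genes, 3 fell in P278KY cord and 0 rose, beside 2.95% of all tested genes that fell, 2.36% that rose and 5.32% in both directions. The 3 were the receptor genes Ret and Gfra1 and the ligand gene Cntf. The 10 genes and the marker and pathway lists were chosen with earlier results of these data known. The shares of all tested genes set beside them are therefore a description and not a test. The falls of Ret (log2 change -0.21) and Gfra1 (-0.23) were small, and that of Cntf was larger (-0.60). The log2 change was negative for 8 of the 10 genes, with a median of -0.18, beside -0.003 over all tested genes. The 7 genes that did not pass were Gdnf, Nrtn, Gfra2, Cntfr, Lif, Lifr and Il6st. Without mice 9 to 12 none of the 3 calls held, with log2 changes of -0.19, -0.24 and -0.50 (edgeR adjusted p = 0.145, 0.141 and 0.149). None of the 10 had genotypes that did not overlap over all 12 mice, as 3.73% of the tested genes did. In whole tissue, fewer cells of a type and less RNA per cell cannot be told apart.

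**Figure D1:**
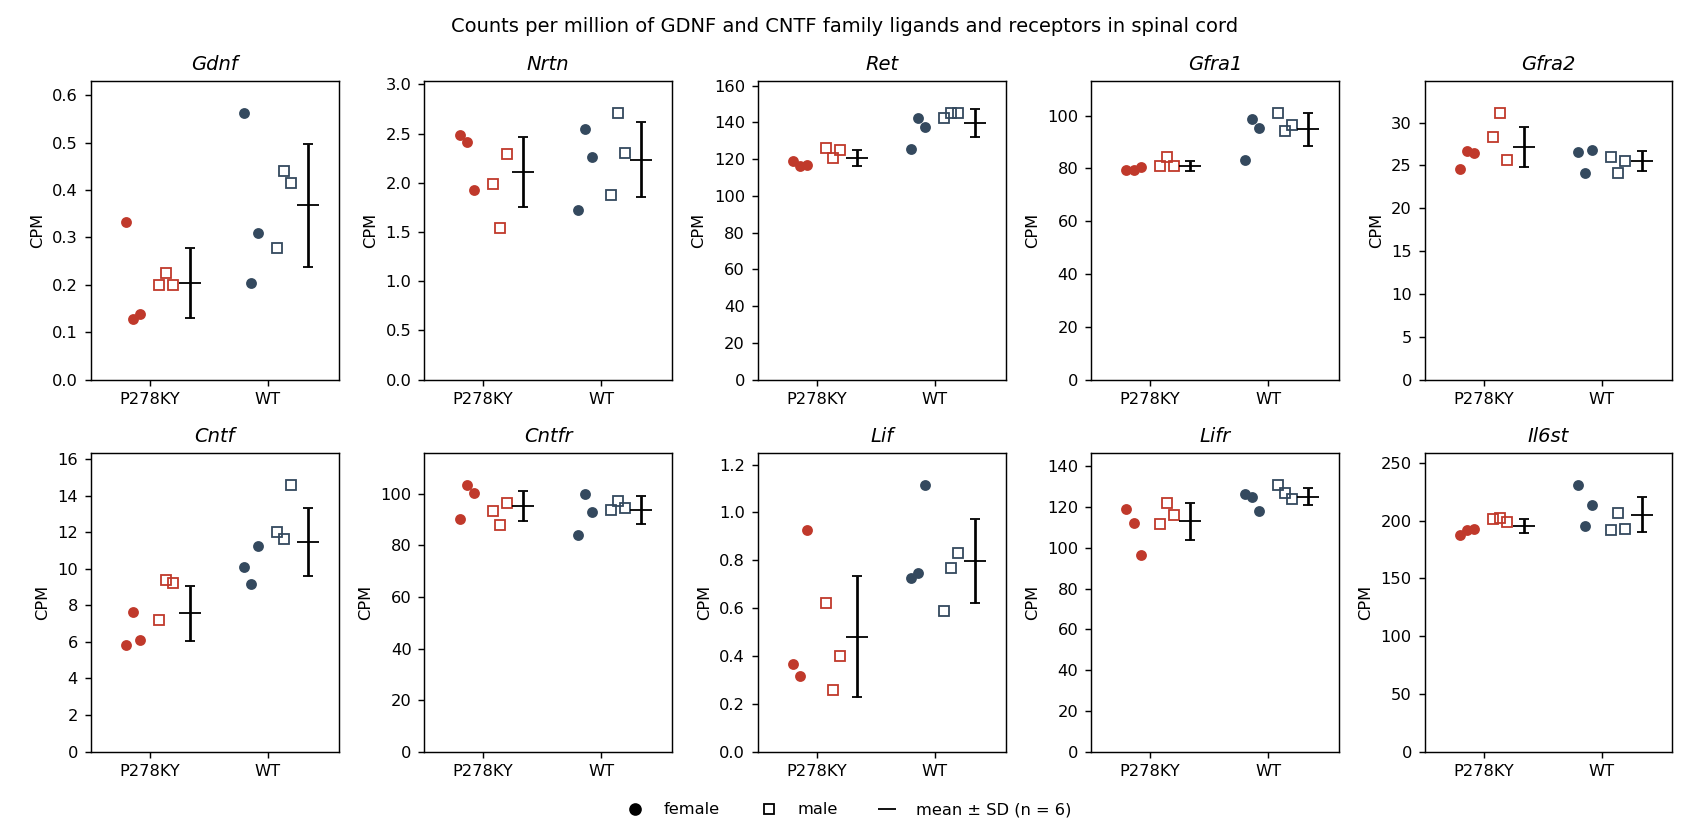
CPM (scaled counts, linear axis from 0) of the 10 genes, with P278KY mice left and WT mice right, filled circles for females, open squares for males, and the mean ± SD of 6 mice as a bar. P278KY mice sit lower than WT mice of the same sex for Ret, Gfra1 and Cntf, while the points of Nrtn, Gfra2 and Cntfr lie among each other.

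Levels are given first as TPM, the share of a library's transcripts with transcript length taken into account, so that genes can be set beside each other. Cntfr was the most abundant of the 10, at a mean of 104.4 ± 6.98 TPM over the 12 mice (SD). It was followed by Il6st at 59.2 ± 3.40, Gfra1 at 47.8 ± 3.71, Ret at 35.6 ± 2.32, Lifr at 26.6 ± 1.68, Cntf at 19.4 ± 4.84 and Gfra2 at 15.1 ± 1.49 TPM. The ligand genes other than Cntf were low, with Nrtn at 4.70 ± 0.738, Lif at 0.549 ± 0.274 and Gdnf at 0.159 ± 0.0719 TPM. The mean of Cntfr was 656 times that of Gdnf. Neighbours in this order whose ranges over mice overlapped were Lifr and Cntf, Cntf and Gfra2, and Lif and Gdnf. All other neighbours were apart. Cntf averaged 16.0 TPM in P278KY mice, beside 16.0 TPM for Gfra2, and in WT mice it averaged 22.9 TPM, with every mouse above every WT value of Gfra2 (14.3 TPM).

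**Figure D2:**
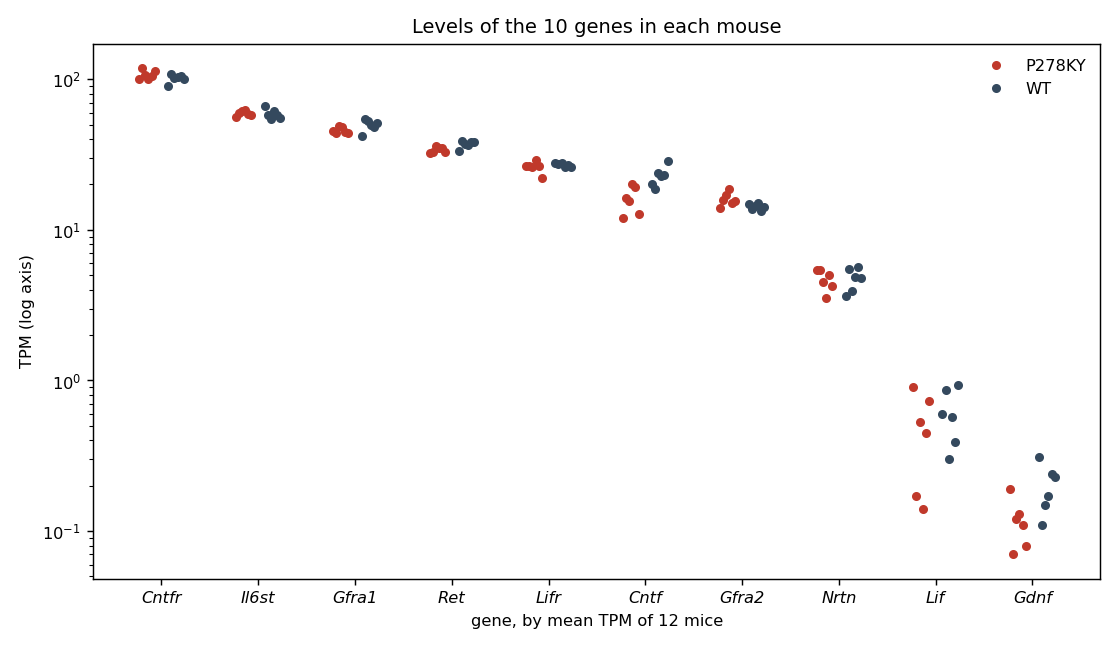
TPM of the 10 genes in each mouse on a log axis, ordered by the mean of the 12 mice, with P278KY mice left of WT mice. The receptors fill the upper part of the range, Cntf is the 1 ligand gene among them, and Lif and Gdnf lie below 1 TPM in every mouse.

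GDNF itself was near the limit of detection. Gdnf (ENSMUSG00000022144, chromosome 15, 7810846 to 7837575, plus strand, GRCm38) had 39 counts in all in the 6 P278KY mice, 4 to 10 a mouse, and 64 in the 6 WT mice, 6 to 17 a mouse. Levels of 1 gene across mice are given from here on as CPM, counts scaled to a common library size. In P278KY mice Gdnf was at 0.332, 0.127 and 0.138 CPM in females and at 0.199, 0.225 and 0.199 CPM in males, against 0.562, 0.203 and 0.310 CPM in WT females and 0.277, 0.439 and 0.414 CPM in WT males. The genotypes overlapped in females and did not in males. Its log2 change of -0.84 (SE 0.33, 95% interval -1.56 to -0.12) did not pass (edgeR's quasi-likelihood test, Benjamini-Hochberg adjusted p = 0.172). Its unadjusted p was 0.0251 in the same edgeR fit, so it missed the threshold after adjustment over the 17980 genes.

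Neurturin, the relative of GDNF that favours GFRα2, did not differ detectably. Nrtn (ENSMUSG00000039481, chromosome 17, 56751325 to 56757530, minus strand) was at 2.49, 2.41 and 1.93 CPM in P278KY females and at 1.99, 1.54 and 2.29 CPM in P278KY males. WT females had 1.72, 2.54 and 2.26 CPM and WT males had 1.87, 2.71 and 2.30 CPM. The groups overlapped, and the log2 change was -0.09 (95% interval -0.42 to 0.25, edgeR adjusted p = 0.810). The sign turned without mice 7, 10 and 11, without mice 9 to 12 and in females alone (0.066, 0.14 and 0.066).

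Ret, the signalling receptor of the GDNF family, was lower in P278KY mice of both sexes. It lies on chromosome 6 (ENSMUSG00000030110, 118151745 to 118197718, minus strand), 63.1 Mb from Gars on the same chromosome. P278KY females had 119.1, 116.3 and 116.7 CPM and P278KY males had 126.2, 120.6 and 124.8 CPM. WT females had 125.7, 142.6 and 137.3 CPM and WT males had 142.2, 145.1 and 145.0 CPM. All P278KY mice lay below all WT mice of their own sex, and over both sexes the overlap came from WT female 1, the lowest WT mouse, which lay below P278KY male 6. The means were 120.6 ± 4.13 CPM in P278KY mice and 139.7 ± 7.39 CPM in WT mice (SD, n = 6 each), 1.16-fold lower in P278KY. The log2 change was -0.21 (SE 0.03, 95% interval -0.28 to -0.15, edgeR adjusted p = 0.00176). Of the tested genes on chromosome 6, 6.29% were called, with 6.61% within 10 Mb of Gars and 6.22% within 10 Mb of Ret, beside 5.38% of all genes with a position.

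Gfra1, the co-receptor that binds GDNF, differed by almost the same amount. Gfra1 (ENSMUSG00000025089, chromosome 19, 58235604 to 58455909, minus strand) was at 79.4, 79.4 and 80.4 CPM in P278KY females and at 81.1, 84.3 and 80.8 CPM in P278KY males. WT females had 83.2, 98.6 and 95.3 CPM and WT males had 101.0, 94.4 and 96.5 CPM. Every P278KY mouse was below every WT mouse of its sex, and 5 of 6 P278KY mice were below the lowest WT value, that of WT female 1. The means were 80.9 ± 1.78 CPM in P278KY mice and 94.9 ± 6.17 CPM in WT mice (SD, n = 6 each), 1.17-fold lower in P278KY. The log2 change was -0.23 (SE 0.04, 95% interval -0.31 to -0.15, edgeR adjusted p = 0.00456). Leaving out the 3 mice with the highest ganglion markers (7, 10 and 11) gave -0.24 with an adjusted p of 0.0556.

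The calls of Ret and Gfra1 depended on the scale. On log2(TPM + 1) values, tested with limma, the change was -0.12 for Ret (adjusted p = 0.0622) and -0.11 for Gfra1 (adjusted p = 0.226), while the median over all tested genes moved to 0.062. On that scale 8.93% of tested genes were called, 1358 higher and 248 lower in P278KY (84.6% higher), against 425 higher and 531 lower on the counts (44.5% higher). The mean transcript length that the deposited tables give for Gfra1 was 3594 bases in P278KY mice and 3696 bases in WT mice, and for Ret it was 7084 and 7126 bases. The ratio of Gfra1 to Ret in TPM was 1.35 ± 0.0406 in P278KY mice and 1.34 ± 0.0611 in WT mice (SD, n = 6 each), a difference smaller than the spread between mice.

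Gfra2, the co-receptor that favours neurturin, did not pass. Gfra2 (ENSMUSG00000022103, chromosome 14, 70890120 to 70979838, plus strand) was at 24.6, 26.6 and 26.4 CPM in P278KY females and at 28.4, 31.1 and 25.7 CPM in P278KY males. WT females had 26.6, 24.2 and 26.8 CPM and WT males had 25.9, 24.1 and 25.5 CPM. The groups overlapped, with P278KY male 7 and P278KY male 6 the 2 mice above all WT mice. Gfra2 had a log2 change of 0.09 (95% interval -0.03 to 0.21, edgeR adjusted p = 0.404). The TPM ratio of Gfra1 to Gfra2 was 2.88 ± 0.223 in P278KY mice and 3.49 ± 0.370 in WT mice (SD, n = 6 each), with ranges of 2.56 to 3.24 and 2.85 to 3.92 that overlapped. The difference of the 2 genes' changes was not tested.

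Cntf, the ligand that supports motor neurons from Schwann cells and astrocytes, showed the largest called fall of the 10 genes. Cntf (ENSMUSG00000079415, chromosome 19, 12763660 to 12765632, minus strand) was at 5.84, 7.64 and 6.12 CPM in P278KY females and at 7.22, 9.39 and 9.22 CPM in P278KY males. WT females had 10.1, 9.18 and 11.2 CPM and WT males had 12.03, 11.64 and 14.58 CPM. P278KY mice were below WT mice throughout within each sex, and across the sexes P278KY males 7 and 8 lay above WT female 2. The means were 7.57 ± 1.499 CPM in P278KY mice and 11.5 ± 1.85 CPM in WT mice (SD, n = 6 each), 1.52-fold lower in P278KY. Cntf had a log2 change of -0.60 (SE 0.10, 95% interval -0.81 to -0.39, edgeR adjusted p = 0.00357). On log2(TPM + 1) values it was -0.50 and remained called (limma adjusted p = 0.00777).

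The Cntf counts rest on reads that another annotated transcript shares. In GENCODE M21 the gene Zfp91, which encodes a zinc finger ubiquitin ligase, has a read-through transcript whose last 2 exons are made of Cntf sequence. Of the 1073 bases of the Cntf transcript, 848 are also in this read-through transcript, including all 594 coding bases, and 225 bases are found in Cntf alone. Of its 999 windows of 75 bases, the read length, 774 (77.5%) also occur in Zfp91. In GENCODE M21 no window of the other 9 genes occurs in another gene's transcripts, and the annotation behind the deposited counts is not known. The deposited expected count of Cntf was a whole number in 5 of 6 P278KY mice and in 1 of 6 WT mice. That of Lifr was whole in 0 of 12 mice, that of Gfra2 in 7, and those of Gfra1 and Il6st in 11 each. What the divided reads of these genes matched was not traced. Zfp91 as a whole was at 219.4 ± 5.69 CPM in P278KY mice and 218.1 ± 7.82 CPM in WT mice (SD, n = 6 each), with a log2 change of 0.01 (edgeR adjusted p = 0.908). The Zfp91 count was whole in the same mice as that of Cntf, 5 of 6 P278KY mice and 1 of 6 WT mice. In the other mice the fractions of the 2 genes made up a whole number, as with 305.85 and 6280.15 in WT female 1. Reads were thus divided between the 2 genes in more WT than P278KY mice. The part of this division in the fall of Cntf was not tested, and how many Cntf reads came from the read-through transcript was not measured.

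**Figure D3:**
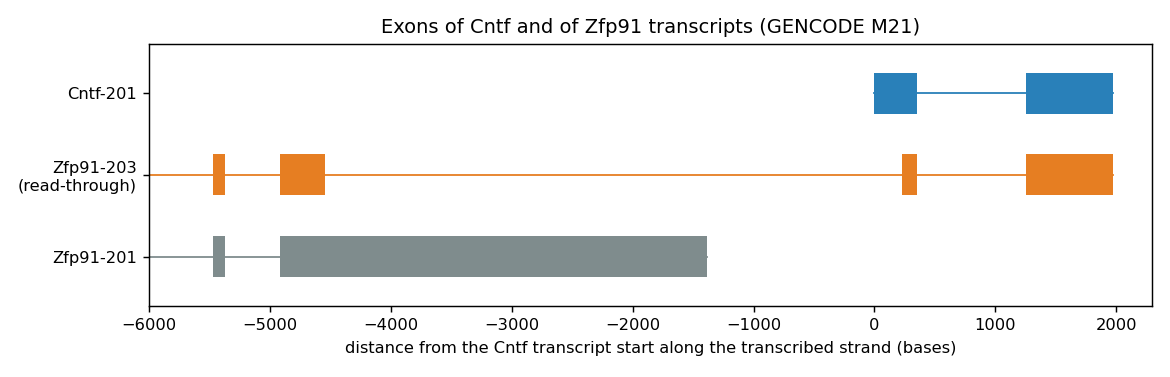
Exons (boxes) of Cntf and of the ends of the Zfp91 transcripts in GENCODE M21, by distance in bases from the start of the Cntf transcript along the transcribed strand. The Zfp91 read-through transcript holds the second Cntf exon whole and the first from base 226 on, while the other Zfp91 transcript drawn ends at -1388 bases.

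The promoters of Gfra1 and Cntf are shown because both genes were called and both lie on chromosome 19, 45.5 Mb apart. They are the 250 bases before each annotated start in RefSeq (GRCm38.p6), chr19:58455399-58455648 for Gfra1 and chr19:12765633-12765882 for Cntf, both on the minus strand. The 2 annotations place the Gfra1 start differently. In GENCODE M21 Gfra1 reaches to 58455909, so the Gfra1 window lies inside the gene as placed above. For Cntf the GENCODE start (12765632) borders the window. Of the 10 genes 8 had an entry in the promoter table used, and Ret and Gfra2 had none. Capitals mark E-boxes (CANNTG on either strand), the letters that basic helix-loop-helix factors recognise.
Gfra1 promoter: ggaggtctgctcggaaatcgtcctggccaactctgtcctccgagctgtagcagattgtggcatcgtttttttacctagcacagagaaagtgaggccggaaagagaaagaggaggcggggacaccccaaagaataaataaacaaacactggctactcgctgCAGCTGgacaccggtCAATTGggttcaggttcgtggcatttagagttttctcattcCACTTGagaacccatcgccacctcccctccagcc
Cntf promoter: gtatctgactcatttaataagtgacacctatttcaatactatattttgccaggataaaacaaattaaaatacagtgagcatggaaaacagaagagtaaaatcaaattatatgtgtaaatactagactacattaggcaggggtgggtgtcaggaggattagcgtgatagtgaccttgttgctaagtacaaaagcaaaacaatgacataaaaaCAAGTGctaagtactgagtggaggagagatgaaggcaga
The Gfra1 window held 3 E-boxes, which began 90, 75 and 34 bases before the RefSeq start, and the Cntf window held 1, at 39 bases. Such letters are common, found in 66.2% of 32851 promoter windows of that length. The windows differed in base composition, with 52.4% G and C in Gfra1, equal to the median of all entries, and 35.6% in Cntf. Neither held a TATA box (TATAAA, in 12.4% of windows), a GC box (GGGCGG, 32.7%), a cAMP response element (TGACGTCA, 1.55%), a homeodomain core (TAATTA, 4.84%) or a SOX core (ACAAAG, 16.5%), on either strand.

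LIF, the second cytokine ligand, was scarce too, though above Gdnf in TPM in all 12 mice. Lif (ENSMUSG00000034394, chromosome 11, 4257557 to 4272514, plus strand) had 93 counts in all in P278KY mice, 8 to 27 a mouse, and 140 in WT mice, 17 to 36 a mouse. It was at 0.365, 0.317 and 0.928 CPM in P278KY females and at 0.622, 0.257 and 0.398 CPM in P278KY males, against 0.728, 0.745 and 1.11 CPM in WT females and 0.590, 0.769 and 0.829 CPM in WT males. The genotypes overlapped in both sexes, through P278KY female 9, which was above all WT mice but WT female 10, and P278KY male 6, which was above WT male 5. The other 4 P278KY mice lay below all WT mice. Its log2 change of -0.72 (SE 0.30, 95% interval -1.36 to -0.07) did not pass (edgeR adjusted p = 0.195).

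Cntfr, which binds CNTF, was the most abundant receptor and the least changed. Cntfr (ENSMUSG00000028444, chromosome 4, 41657498 to 41697089, minus strand) was at 90.4, 103.4 and 100.2 CPM in P278KY females and at 93.3, 87.9 and 96.6 CPM in P278KY males. WT females had 84.1, 99.8 and 93.2 CPM and WT males had 93.6, 97.1 and 94.7 CPM. The groups overlapped over most of their range. Cntfr had a log2 change of 0.02 (95% interval -0.08 to 0.13, edgeR adjusted p = 0.837), and its sign turned without P278KY female 4 (-0.0017), without WT female 1 (-0.012), without mice 1 to 4 (-0.0032) and in males alone (-0.039).

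Lifr, the LIF receptor, came close to the threshold. Lifr (ENSMUSG00000054263, chromosome 15, 7090614 to 7197489, plus strand, 613 kb before Gdnf) was at 119.2, 112.0 and 96.6 CPM in P278KY females and at 111.8, 122.1 and 116.2 CPM in P278KY males. WT females had 126.5, 125.0 and 118.2 CPM and WT males had 130.8, 126.9 and 123.9 CPM. The genotypes did not overlap in males, and in females P278KY female 3 lay above WT female 10. Lifr had a log2 change of -0.15 (SE 0.05, 95% interval -0.25 to -0.05, edgeR adjusted p = 0.0803). It passed with the Wald test of DESeq2 (adjusted p = 0.0289) and without P278KY female 3 (edgeR adjusted p = 0.0487). The expected count of Lifr was a whole number in 0 of 12 mice, and the source of the fractions was not traced.

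Il6st, which encodes gp130, the signalling subunit common to the family, had the most counts of the 10 genes. Il6st (ENSMUSG00000021756, chromosome 13, 112464070 to 112510086, plus strand) was at 187.2, 191.7 and 192.7 CPM in P278KY females and at 201.1, 202.1 and 198.6 CPM in P278KY males. WT females had 230.8, 195.7 and 213.8 CPM and WT males had 191.8, 206.4 and 192.6 CPM. P278KY mice were below WT mice among females and lay within the WT range among males. Il6st had a log2 change of -0.07 (95% interval -0.17 to 0.03, edgeR adjusted p = 0.442), and on log2(TPM + 1) values it was 0.01.

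Within the sexes, Ret, Gfra1 and Cntf kept their direction and nearly their size. In females 0 of the 10 genes passed, beside 0.573% of tested genes. At an unadjusted edgeR p under 0.05 there were 5 in females, all lower in P278KY mice (Ret, Gfra1, Cntf, Lifr and Il6st). In males there were 4, of which 3 were lower (Ret, Gfra1 and Cntf) and 1 was higher (Gfra2). The share of all tested genes at that level was not taken within a sex, and was 20.2% over all 12 mice. With all females the log2 changes were -0.20 for Ret, -0.21 for Gfra1 and -0.64 for Cntf (edgeR adjusted p = 0.0746, 0.133 and 0.0746). Without WT female 1, 2 passed in females, Ret and Gfra1. In males 1 of 10 passed, beside 1.55% of tested genes, Ret at -0.22 (edgeR adjusted p = 0.0354). That call was lost in 8 of the 12 fits with 1 mouse left out, those without P278KY female 3 or 4, WT male 5, 11 or 12, or P278KY male 6, 7 or 8. It was also lost with no filter on low counts, while without WT female 1 or WT female 2 both Ret and Gfra1 passed in males. Gfra1 was at -0.25 and Cntf at -0.57 in males (edgeR adjusted p = 0.0567 and 0.0739). In females 4 of the 10 genes (Ret, Gfra1, Cntf and Il6st) had all P278KY mice below all WT mice, beside 7.71% of tested genes, and in males 5 did (Ret, Gfra1, Cntf, Gdnf and Lifr), beside 11.6%. The 3 that did so in both sexes, Ret, Gfra1 and Cntf, compare with 2.96% of tested genes. They are the 3 genes called on the same 12 mice, so this is not a separate test.

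None of the 10 genes showed a tested difference between the sexes in its genotype effect. The interaction of genotype and sex passed for 0 of the 10 genes and for 0 of all tested genes (0.00%) in edgeR, with 665 (3.70%) of tested genes at an unadjusted p under 0.05. In the 12 fits with 1 mouse left out it also passed for 0 of the 10, and for 0 to 42 of all genes, the most without P278KY male 7. The interaction with the smallest p of the 10 was that of Il6st, whose effect was 0.03 in males and -0.16 in females (difference 0.19, edgeR adjusted p = 0.9999). The difference was -0.01 for Ret, with a 95% interval of -0.15 to 0.13, -0.03 for Gfra1 (-0.21 to 0.14) and 0.07 for Cntf (-0.36 to 0.51). Between the sexes themselves, 0 of the 10 genes passed, beside 0.0890% of tested genes, and Cntf had the smallest p, at 0.36 higher on the log2 scale in males than in females (edgeR adjusted p = 0.316).

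**Figure D4:**
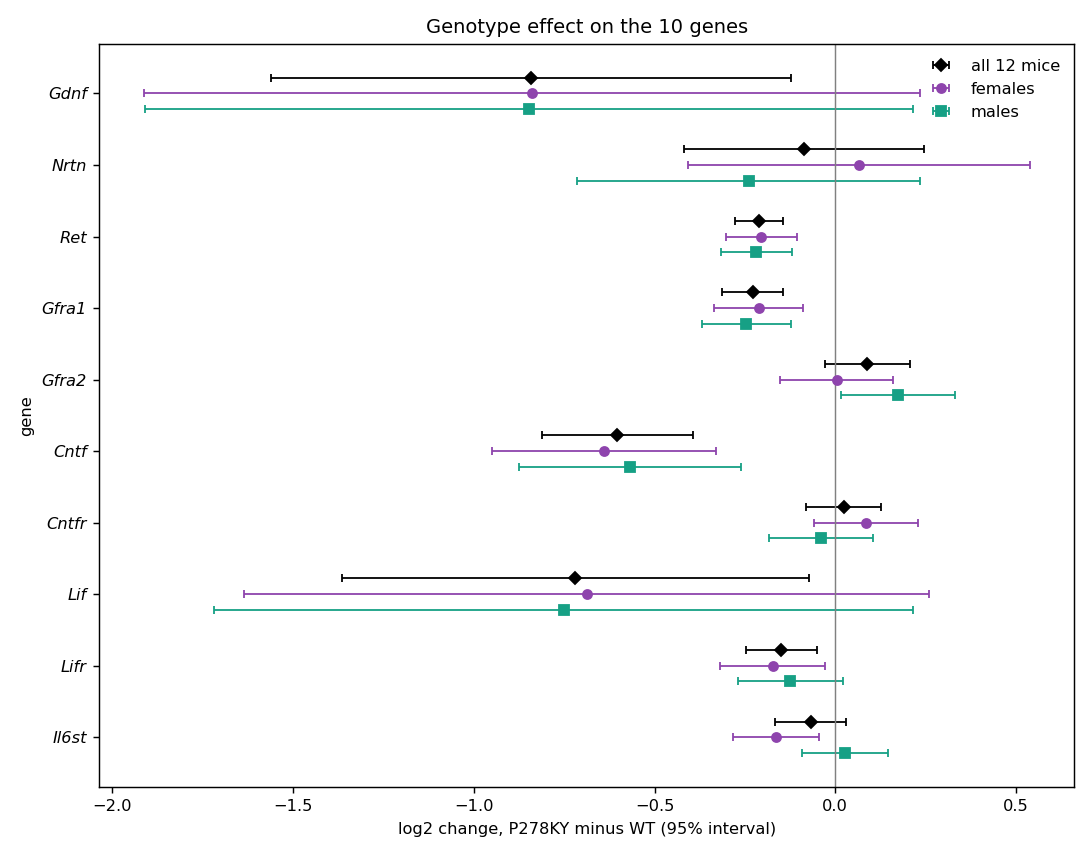
Fitted log2 change (P278KY minus WT) of the 10 genes with its 95% interval, for all 12 mice (black diamonds), females (purple circles) and males (green squares). The intervals of Ret, Gfra1 and Cntf lie below 0 in all 3 fits, those of Gdnf and Lif are wide, and Il6st is at -0.16 in females and 0.03 in males.

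Ret and Gfra1 were lower in the same genotype as the motor neuron markers, and within the genotypes the mice were ordered only in part alike. Across the 12 mice, the tested genes of at least 1 CPM whose log2 CPM was most like that of Ret were Layn, Tmem63c and Fxyd7 (Pearson r = 0.98, 0.98 and 0.97). For Gfra1 they were Fxyd7, Tmem63c and Chp1 (r = 0.98, 0.96 and 0.96). All of these genes were lower in P278KY mice, so the correlations hold the genotype difference. With the mean of each of the 4 groups taken out, r was 0.96, 0.90 and 0.88 for Ret and 0.89, 0.85 and 0.86 for Gfra1. Ret and Gfra1 had r = 0.94 with each other, and 0.69 with the group means taken out. P278KY male 7 was the highest P278KY mouse for the motor neuron markers (mean log2 CPM 4.63) and for Gfra1. It also had the highest ganglion marker mean (2.77), and Isl1 is in both lists. By the summed level of the motor neuron list it was at 4006 CPM, below P278KY male 8 at 4207 CPM. WT female 1 was the lowest WT mouse for the motor neuron markers (4.82) and for both genes. WT male 11 was the highest WT mouse for those markers (5.27) and for Ret (145.1 CPM). For Gfra1 it was the lowest WT mouse after female 1 (94.4 CPM). For Ret the highest P278KY mice were males 6 and 8, at 126.2 and 124.8 CPM, and male 8 had one of the lowest motor neuron means (4.39). The summed level of the motor neuron list was 3946 to 4207 CPM in P278KY mice and 4741 to 6946 CPM in WT mice, and its 3 most abundant genes were the neurofilament genes Nefm, Nefl and Nefh. No marker of the list was at 0 in all mice. The part of the marker difference in the change of Ret and Gfra1 was not tested.

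Cntf was lower in the same genotype as the motor neuron and the Schwann cell markers. Within the genotypes, its order over the mice was like that of the markers only in part. WT female 1, with the lowest motor neuron mean of the WT mice (4.82), had more Cntf (10.1 CPM) than WT female 2 (9.18 CPM), whose mean was 5.21. Between Cntf and Ret r was 0.81 over the 12 mice and -0.28 with the group means taken out. The summed level of the Schwann cell list was 12952 to 16853 CPM in P278KY mice and 15812 to 20721 CPM in WT mice, of which Mbp, shared with oligodendrocytes, was the most abundant. P278KY male 7 and WT female 2 had the same Schwann cell mean (5.98) and nearly the same Cntf level (9.39 and 9.18 CPM). P278KY male 8 had the lowest Schwann cell mean (4.89) and the second highest Cntf level of the P278KY mice (9.22 CPM). Among WT mice, female 2 was lowest and males 5 and 12 highest on both. Their Schwann cell means were 5.98, 6.43 and 6.48, with Cntf at 9.18, 12.03 and 14.58 CPM. WT male 11 had the lowest Schwann cell mean after female 2 (6.07) but the highest Cntf level after males 5 and 12 (11.64 CPM). The astrocyte markers lay at 8.33 to 8.51 in P278KY mice and at 8.20 to 8.35 in WT mice, and 2 of 12 rose. The genes most like Cntf were Sdhaf2, Lox and Mctp1 (r = 0.91, 0.91 and 0.90 over 12 mice, and 0.87, 0.83 and 0.51 with the group means taken out), and all 3 were called lower in P278KY mice. The part of Schwann cell RNA in the change of Cntf was not tested.

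**Figure D5:**
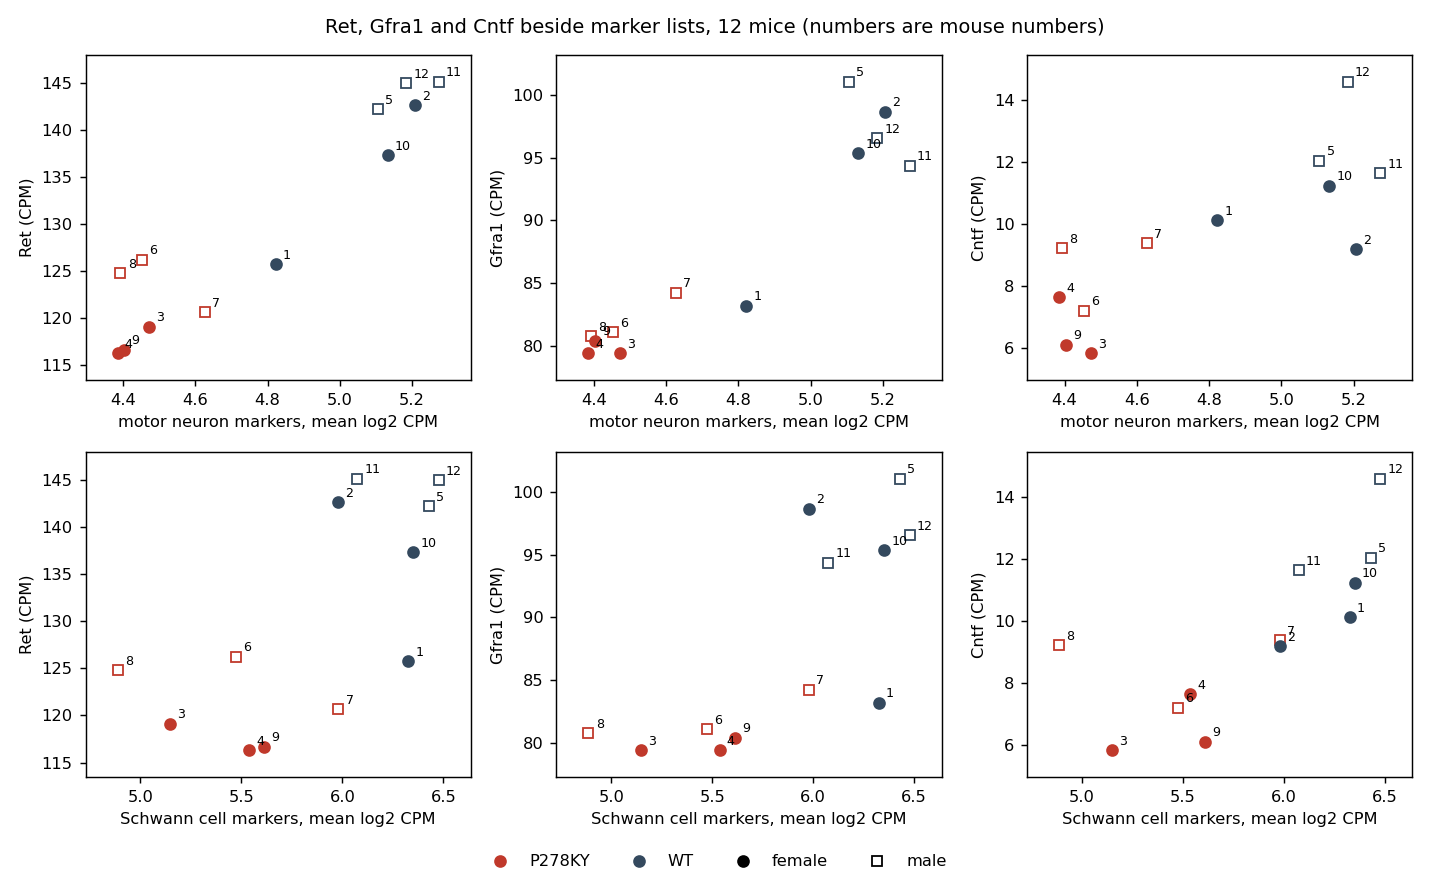
CPM of Ret, Gfra1 and Cntf in each mouse against the mean log2 CPM of motor neuron markers (upper row) and Schwann cell markers (lower row), with P278KY mice in red, WT mice in dark blue, and mouse numbers beside the points. P278KY mice lie at 4.39 to 4.63 of the motor neuron mean, left of all WT mice at 4.82 to 5.27, and on the Schwann cell mean P278KY male 7 lies beside WT female 2.

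The genes most like the remaining members in pattern did not follow the genotype call. Cntfr was most like the astrocyte gene Aldoc (r = 0.94 over 12 mice), then Maz and Rap1gap (0.88 and 0.87), and none of the 3 was called. Il6st was most like Aebp1, Zbtb46 and Colec12 (0.93, 0.90 and 0.90), Lifr was most like Vps26a, Eif4g2 and Kpna4 (0.90, 0.89 and 0.88), Gfra2 was most like Tmem200a, Hrh2 and Mbtps1 (0.92, 0.90 and 0.87), and Nrtn was most like Ppp1cc, Esrra and Gatad1 (0.89, 0.89 and 0.86). None of these genes was called for genotype. The points of each correlation share their library, and with 17980 genes searched high values are chosen by construction.

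The other genes of the 2 pathways were read from 4 lists with 68 genes, of which 63 were tested. In P278KY cord 3 rose and 1 fell, which is 4 of 63, beside 5.32% of all tested genes, with a median log2 change of -0.01. Among other GDNF family ligands and receptors, 3 of 5 were tested and 0 passed, also at an unadjusted p under 0.05, with the smallest p for Gfra4, the co-receptor of persephin (log2 change 0.07), and Artn, the ligand artemin (0.11). Pspn and Gfral had too few counts for testing, 20 and 22 in P278KY mice and 14 and 1 in WT mice.

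Of 24 genes of RET signalling and its response, 3 rose and 0 fell, beside 2.36% of all tested genes that rose and 2.95% that fell, with a median log2 change of -0.02. At an unadjusted p under 0.05 there were 11 of the 24, beside 20.2% of all tested genes, with 5 higher and 6 lower in P278KY mice, beside 10.4% of all tested genes that were lower. The 6 lower ones were Etv4, Shc1, Spry1, Spry2, Etv1 and Grb7, with log2 changes of -0.29, -0.17, -0.24, -0.13, -0.22 and -0.58. None of these 6 passed the adjustment (edgeR adjusted p = 0.0716 to 0.216). The 5 higher ones were the 3 called genes, given next, and Cbl and Dok6, with log2 changes of 0.20 and 0.19. Cbl and Dok6 did not pass either (edgeR adjusted p = 0.0839 and 0.160). Grb10, an adaptor that binds phosphorylated RET, was at 85.8, 95.2 and 86.3 CPM in P278KY females and 95.5, 94.7 and 91.1 CPM in P278KY males, against 78.7, 75.4 and 80.2 CPM in WT females and 84.2, 73.4 and 80.5 CPM in WT males. All P278KY mice were above all WT mice, and the log2 change was 0.22 (SE 0.04, edgeR adjusted p = 0.00693). The call of Grb10 was lost without mice 7, 10 and 11 (adjusted p = 0.0629) and without mice 1 to 4 (adjusted p = 0.0560), with changes of 0.19 and 0.21. Plcg1, a phospholipase that docks on RET, rose by 0.14 (SE 0.03, edgeR adjusted p = 0.0278), and the kinase gene Src rose by 0.13 (SE 0.04, edgeR adjusted p = 0.0499). Plcg1 was at 93.9, 102.6 and 103.5 CPM (lowest, median and highest) in P278KY mice and 87.8, 89.9 and 95.5 CPM in WT mice, and its call held in 4 of the 12 fits with 1 mouse left out. Src was at 61.8, 63.4 and 67.0 CPM in P278KY mice and 52.8, 58.5 and 62.0 CPM in WT mice, and its call held in 1 of those 12 fits, the one without WT female 2.

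Of 15 other IL-6 family ligands and receptors 12 were tested and 0 passed, with a median log2 change of 0.08 and 0 at an unadjusted p under 0.05. The smallest p values were those of the receptor genes Il27ra (log2 change -0.52, edgeR adjusted p = 0.359) and Il11ra1 (0.07, edgeR adjusted p = 0.378). Il6, Osm and Il27 had 8, 33 and 6 counts in P278KY mice and 7, 20 and 11 in WT mice, too few to be tested.

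Of 24 genes of JAK-STAT signalling and its response 1 fell and 0 rose, near the share of all tested genes (2.95% fell and 2.36% rose), with a median log2 change of -0.02. At an unadjusted p under 0.05 there were 3 of the 24 (Gfap, Jak1 and Junb), beside 20.2% of all tested genes. Jak1, a kinase bound to gp130, was at 180.1, 176.2 and 171.4 CPM in P278KY females and 181.4, 179.7 and 187.0 CPM in P278KY males, against 198.3, 211.3 and 205.8 CPM in WT females and 198.3, 204.2 and 206.5 CPM in WT males. All P278KY mice lay below all WT mice. The log2 change was -0.19 (SE 0.03, edgeR adjusted p = 0.00192), and on log2(TPM + 1) values it was -0.10 with a limma adjusted p of 0.101. Chosen after their values were seen, Stat3, the transcription factor that CNTF and LIF activate, had a log2 change of -0.01 (95% interval -0.11 to 0.10), its feedback target Socs3 had -0.17 (-0.74 to 0.41), and the STAT3 target Gfap, an astrocyte gene, had 0.29 (0.09 to 0.50). None of these 3 passed (edgeR adjusted p = 0.962, 0.783 and 0.0962).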

How the data were processed

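The submitters' processing notes name Bowtie2 2.2.0 and RSEM 1.2.12, and their genome build and annotation are not given in these sources. Per the file headers, the deposited tables give expected counts per gene, estimates in which a read matching several genes is divided among them. They also give TPM, deposited by the authors as values scaled for length and library size, and FPKM, deposited likewise and used here only for the order of levels. The labels name 2 library kits, 1 of them stranded by its name, and do not say which mouse had which.

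Expected counts were rounded, filtered with filterByExpr over the 4 groups, scaled by TMM and tested with the quasi-likelihood F test of edgeR 4.0.16 (R 4.3.3) on sex and genotype, with a Benjamini-Hochberg threshold of 0.05 over all tested genes. A model of 4 group means gave the effects within each sex and the interaction. CPM are scaled by TMM, and log2 CPM used a prior count of 2. TPM were tested with limma 3.58.1, and DESeq2 1.42.0 was an alternative. The tests treat each mouse as 1 sample. Fits were checked on simulated data with genes changed by known amounts. The edgeR fit called 21 of 67 genes changed 1.15-fold, 51 of 67 changed 1.5-fold and 63 of 66 changed 2-fold, with 5 false calls. In the simulation it thus missed most genes changed 1.15-fold, near the size of the Ret and Gfra1 falls. The changed genes were drawn from all those of at least 1 CPM and were fewer than the 956 called in the data. These shares therefore need not hold for the real fit or for genes at the level of Ret and Gfra1. Positions came from GENCODE M21 (GRCm38) by gene identifier and promoters from RefSeq. The 10 genes, the pathway lists and the marker lists were chosen with earlier results of these data known. The text names all 10 genes, called genes of each pathway list or else the 2 smallest p values, and the 3 genes most like each gene of at least 1 CPM. Outside that rule it also names the RET and JAK-STAT list genes at an unadjusted edgeR p under 0.05, and Stat3 and Socs3.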

Additional observations from a re-analysis of the deposited data

Results flagged for a closer look

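Among the 20 sets of 6 mice (10 genes in each genotype), 2 held a CPM value far from the rest, both for Gfra1, and chance gives about 1 in 20. In P278KY mice, male 7 stood apart as the highest, at 84.3 CPM, against 79.4 to 81.1 CPM in the other 5. In WT mice, female 1 stood apart as the lowest, at 83.2 CPM, against 94.4 to 101.0 CPM in the other 5. These 2 mice produced the overlap of the genotypes for Gfra1. P278KY male 7 also had the highest ganglion marker mean (2.77), and WT female 1 the highest muscle marker mean (9.02); their part in the Gfra1 values was not tested.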

How the results depend on the processing

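Ret, Gfra1 and Cntf were called in all 12 fits with 1 mouse left out, with an adjusted p of at most 0.0066, 0.0156 and 0.0103, and log2 changes of -0.23 to -0.19, -0.26 to -0.21 and -0.65 to -0.56. Over these 12 fits, 3 to 4 of the 10 genes, 2 to 5 pathway genes and 554 to 1395 of all genes were called, and the interaction passed for 0 genes of the 10. The count of all genes was 600 without P278KY female 4, 554 without P278KY male 6, 620 without P278KY male 7 and 637 without WT male 11, and that of pathway genes was 2 without P278KY female 3 or 4, P278KY male 6, WT female 10, or WT male 11 or 12. Against 956 genes, 4 pathway genes and 3 of the 10, the DESeq2 Wald test called 1617 and 7, with 3 of the 10 plus Lifr, and voom with sample weights called 1467. Limma called 1606 genes on log2(TPM + 1) and 1622 on log2(TPM + 0.1), with 1 of the 10 (Cntf) on each, and Il6st turned to 0.0096 and 0.0098. Without mice 7, 10 and 11 the counts were 255 genes and 1 pathway gene, and Nrtn turned to 0.066. Without mice 1 to 4 they were 579 and 1, and Cntfr turned to -0.0032. Without mice 9 to 12, whose clock genes were low in an earlier analysis, they were 91, 0 pathway genes and 0 of the 10, with Ret at -0.19, Gfra1 at -0.24 and Cntf at -0.50 (adjusted p = 0.145, 0.141 and 0.149), and Nrtn turned to 0.14. Females alone gave 61, 0 and 0, and Nrtn turned to 0.066. Males alone gave 318 genes, 0 pathway genes and 2 of the 10, and Cntfr and Il6st turned to -0.039 and 0.027. Without mice 1, 7, 10 and 11, chosen after seeing the data, 399 genes, 2 pathway genes and 3 of the 10 were called, and Cntfr and Il6st turned to -0.0064 and 0.014. Over the 12 fits Cntfr lay between -0.012 and 0.046, and it turned without P278KY female 4 (-0.0017) and WT female 1 (-0.012). Fits of fewer mice have less power by construction, and the causes of the other moves were not tested. Under the stricter filter Gdnf and Lif were not tested, and DESeq2 gave Gdnf no adjusted p. No paired analysis was possible because mouse numbers are not shared between groups. Depth limits Gdnf and Lif, with at most 17 and 36 counts a mouse.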
